A study of Homo sapiens with 30 samples.

Results

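The comparison described here is that of SH-EP cells carrying MYCN with both the T58A and the S62A substitution (the T58A S62A line) against parental SH-EP cells, each treated with DMSO vehicle for 6 hours. It rests on 6 of the 30 RNA-Seq libraries of the series, 3 of T58A S62A and 3 of SH-EP, which were chosen by their labels. SH-EP is an established human neuroblastoma (NB) cell line, grown in DMEM with fetal bovine serum. The T58A S62A line was made by stable retroviral transfer of a MYCN transgene, driven by an exogenous promoter, and it is 1 line. Nothing in the labels says that the 3 libraries of a group came from separate cultures. The p-values rest on the spread between libraries within groups, estimated over all 10 groups, and that spread may be technical. The 9 DMSO libraries of the sister lines with WT, T58A, or S62A MYCN (3 libraries each, same SH-EP parent and same vector system) were used to see which values were particular to T58A S62A. The other 15 libraries, of the same 5 lines given 1 μM of the CDK9/2 inhibitor CYC065, entered the fit and the filter on low values, and their own levels are given below only for a run of genes on chromosome 1.

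MYCN is a basic helix-loop-helix leucine zipper transcription factor that pairs with MAX and binds E-boxes, of which CACGTG is the canonical form. Serine 62 and threonine 58 lie in its conserved phosphodegron: phosphorylation of S62 primes that of T58, which marks the protein for ubiquitination by FBXW7 and for degradation, so that alanine at both positions removes the pair of phosphorylation sites. Genes of ribosome synthesis, nucleotide synthesis, and polyamine synthesis are textbook targets of the MYC family, and NB cells are known to take either an adrenergic, neuron-like state or a mesenchymal state, the latter being that of SH-EP.

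Among the 11575 genes tested, the median log2 difference between T58A S62A and SH-EP was 0.06 on FPKM as deposited (interquartile range -0.30 to 0.39). FPKM are fragment numbers scaled to the length of a transcript and to the mapped fragments of its library, so they hold no total per cell. When libraries were scaled to the ERCC spike-ins, which had been added by cell number, that median moved by -0.81 to -0.75, and the median against the other MYCN lines by 0.55. Every difference below is therefore on FPKM as deposited and relative to the other transcripts of a library, unless it is called spike-in scaled. "Call lost" beside a spike-in scaled value means that it was not past the threshold. The relative depth estimated from the low values (1 is the deepest DMSO library) was 0.467 to 0.642 in T58A S62A and 0.574 to 0.704 in SH-EP, and 42.7% to 45.6% and 40.6% to 41.8% of all genes were listed at 0. Correlations of log2 FPKM were 0.926 to 0.928 within T58A S62A, 0.938 to 0.953 within SH-EP, and 0.864 to 0.883 between them, while T58A S62A with the other MYCN lines gave 0.905 to 0.932. Each SH-EP library carries an index sequence that a MYCN-line library also carries, so it was not pooled with that library. The labels name no pool. An effect of pooling and a difference between SH-EP and a MYCN line therefore cannot be told apart.

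The labelled cell type was checked against marker genes. Of 13 adrenergic NB markers, 6 were listed at 0 in all 6 libraries and only 2 were tested. The summed level of the list was 67.4 to 90.3 FPKM in T58A S62A and 122 to 129 FPKM in SH-EP. Most of that sum came from 1 gene, TBX2 (means 61.0 and 109 FPKM). The 13 mesenchymal NB markers summed to 1976 to 2090 FPKM and 4445 to 4633 FPKM. Markers of other cell types, apart from the epithelial list, were low in both lines. Leukocyte markers summed to 4.14 to 5.50 FPKM in T58A S62A and to 17.5 to 21.4 FPKM in SH-EP, endothelial markers to 1.41 to 1.55 and 9.19 to 10.6 FPKM, melanocyte markers to 7.10 to 7.19 and 4.23 to 5.32 FPKM, and glial markers to 12.1 to 18.8 and 25.4 to 32.1 FPKM. Epithelial markers reached 547 to 579 and 637 to 697 FPKM, nearly all of it from the keratins KRT8 (means 273 and 288 FPKM) and KRT18 (283 and 373 FPKM), while CDH1, KRT5, KRT14, and ESRP1 were listed at 0.

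MYCN (chromosome 2, 16080672 to 16087129 of GRCh37, plus strand) was at 15.7, 9.06, and 15.7 FPKM in the 3 T58A S62A libraries and listed at 0 in all 3 SH-EP libraries. MYCN RNA was thus present where the labels place the transgene, and 1 of the T58A S62A libraries was lower than the others. FPKM per gene cannot tell the transgene from endogenous MYCN, or the substituted form from another. Because SH-EP was listed at 0, no fold is given. MYC (chromosome 8, 128747680 to 128755197, plus strand), the paralog of MYCN, was at 0.377, 0.494, and 0.635 FPKM in T58A S62A and at 4.68, 4.64, and 5.51 FPKM in SH-EP. The groups did not overlap, and MYC fell by 3.08 on the log2 scale (SE 0.17, limma adjusted p = 2.37e-13). In these bulk libraries, fewer cells with a transcript and less of it in each cell cannot be told apart. Of the 11 tested genes of the MYC, MAX, and MXD network, 6 were higher and 2 lower (median 0.52, spike-in scaled -0.30), beside 31.2% and 24.1% of all tested genes. MXI1 (chromosome 10, 111967363 to 112047123), a MAX partner that opposes MYC proteins, rose from 1.26, 1.04, and 1.44 FPKM to 6.64, 7.17, and 5.55 FPKM (log2 2.29, SE 0.17). MXD4, another MAX partner of that kind, fell from 7.40, 7.74, and 7.50 FPKM to 4.16, 3.52, and 5.16 FPKM (log2 -0.82, SE 0.13).

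In all, 3610 of the tested genes (31.2%) were higher in T58A S62A than in SH-EP and 2787 (24.1%) were lower, at a Benjamini-Hochberg adjusted p under 0.05 by limma. Changes of at least 2-fold were more often falls, with 520 genes higher and 804 lower. Under spike-in scaling 263 were higher and 8066 lower, which took the rises from 56.4% to 3.16% of all calls. The counts of members below are to be read against those 31.2% and 24.1%.

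The canonical E-box was counted in promoter windows of 250 bases before to 50 bases after each start site in RefSeq (GRCh38.p14), of which 8609 tested genes had at least 1. CACGTG, which reads the same on both strands, stood in at least 1 window of 494 of the 2789 genes that were higher in T58A S62A (17.7%), of 198 of the 2139 that were lower (9.26%), and of 435 of the 3681 that passed in neither direction (11.8%). The share over all tested genes with a window was 13.1%. Of all 35116 windows in the table, 7.26% held it. Among genes changed by at least 2-fold, the shares were 20.9% of 358 higher and 4.98% of 582 lower genes. In genes with only 1 window, they were 15.1% of the higher, 7.14% of the lower, and 9.82% of the other genes. By function, CACGTG stood in windows of 10 of 25 ribosome biogenesis genes and 7 of 22 genes of nucleotide and one-carbon synthesis, and of 1 of 20 matrix genes and 0 of 12 collagen chains. It stood in windows of 3 of 26 cytosolic ribosomal proteins, most of which were higher, and of 3 of 9 imprinted and oncofetal genes, most of which were lower. These are counts of letters and not of bound sites.

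Stretches of 30 bases upstream of a start site are shown for 7 genes, chosen after their changes were seen from those described below, to let the motif (in capitals) be seen in its context beside the changes. Of these genes, 6 were higher in T58A S62A and the last, PFKFB3, was lower. The stretches lie at chr2:10448024-10448053 on the minus strand for ODC1, chr2:74834964-74834993 and chr2:74835009-74835038 on the plus strand for HK2, chr16:72008573-72008602 on the plus strand for DHODH, chr22:17774072-17774101 on the minus strand for BID, chr2:197500345-197500374 on the plus strand for HSPE1, chr1:218345275-218345304 on the plus strand for TGFB2, and chr10:6202812-6202841 on the plus strand for PFKFB3, all in GRCh38.p14 and written 5′ to 3′ on the strand of the gene.
ODC1: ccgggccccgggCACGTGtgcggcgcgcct
HK2, distal: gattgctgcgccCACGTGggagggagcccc
HK2, proximal: ttccggcgagagCACGTGgagagaatcgtg
DHODH: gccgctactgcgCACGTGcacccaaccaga
BID: ttgtgtcctctcCACGTGgcctggggattc
HSPE1: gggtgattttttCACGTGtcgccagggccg
TGFB2: gttgaaggcagaCACGTGgttcagagagaa
PFKFB3: caccctcctcccCACGTGgaagggggctgg

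Genes that make ribosomes were higher almost without exception. Of 30 tested genes of ribosome biogenesis and the nucleolus, 29 were higher and 0 lower in T58A S62A, with a median log2 difference of 0.76. Spike-in scaled, that median was -0.07, against -0.75 over all tested genes. RRP9 (chromosome 3, 51967445 to 51975920), a protein of the U3 small nucleolar ribonucleoprotein, was at 64.5, 62.8, and 63.1 FPKM against 19.5, 22.3, and 22.3 FPKM in SH-EP (log2 1.57, SE 0.08, adjusted p = 3.93e-14), and it was also higher with spike-in scaling (0.74). NPM1, the abundant nucleolar phosphoprotein, was at 1732, 1972, and 1675 FPKM against 763, 740, and 713 FPKM (log2 1.28, SE 0.07), although its processed pseudogenes share sequence with it. Of 37 cytosolic ribosomal proteins, 27 were higher and 0 lower, with a smaller median (0.32, or -0.51 spike-in scaled). RPL37 had the largest rise of that list, from 184, 182, and 182 FPKM to 310, 324, and 266 FPKM (log2 0.71, SE 0.09), and RPL23 followed at 0.65 (SE 0.11). Both were past the threshold as deposited and below 0 when spike-in scaled (-0.12 and -0.19).

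Protein synthesis and folding moved the same way. Of 26 translation factors and tRNA synthetases, 21 were higher and 1 lower (median 0.34, spike-in scaled -0.50). EEF1E1, a scaffold of the multi-tRNA synthetase complex, rose from 30.4, 34.2, and 30.4 FPKM to 69.5, 63.7, and 60.8 FPKM (log2 1.03, SE 0.11, 0.20 spike-in scaled, call lost). EIF2S1, the alpha subunit of the initiation factor eIF2, rose by 0.92 (SE 0.06, 0.09 spike-in scaled, call lost), whereas EPRS, the glutamyl-prolyl-tRNA synthetase, was the member that fell, by 0.17 on the log2 scale (SE 0.06). Among 24 heat shock proteins and chaperonins, 20 were higher and 3 lower (median 0.37, spike-in scaled -0.47). HSPE1, the mitochondrial cochaperonin, was at 512, 511, and 433 FPKM against 210, 199, and 204 FPKM (log2 1.24, SE 0.08, 0.41 spike-in scaled, call lost). Of the members that fell, HSPA5, a chaperone of the endoplasmic reticulum, went from 271, 278, and 274 FPKM to 194, 199, and 192 FPKM (log2 -0.49, SE 0.03), and HSP90B1, of the same compartment, changed by -0.39 (SE 0.05).

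Of 27 genes of nucleotide and one-carbon synthesis, 21 were higher and 2 lower (median 0.52, spike-in scaled -0.31). PSAT1, an enzyme of serine synthesis, was at 73.0, 75.7, and 65.6 FPKM against 32.4, 33.7, and 33.8 FPKM (log2 1.1, SE 0.06, 0.27 spike-in scaled, call lost). DHODH, which catalyses a step of pyrimidine synthesis, was at 9.30, 11.7, and 12.5 FPKM against 6.03, 6.01, and 5.0 FPKM (log2 0.96, SE 0.13, 0.14 spike-in scaled, call lost). The enzyme just upstream of PSAT1 in the same pathway, PHGDH, moved against it, from 60.8, 61.6, and 61.6 FPKM in SH-EP to 33.3, 36.1, and 32.1 FPKM in T58A S62A (log2 -0.86, SE 0.06). IMPDH2, of guanine nucleotide synthesis, was the other member that fell, by 0.46 on the log2 scale (SE 0.05). In the polyamine pathway, 6 of 9 tested genes were higher and 1 lower (median 0.30, spike-in scaled -0.53). ODC1 (chromosome 2, 10580094 to 10588453), the rate-limiting enzyme and a classical MYC target, was at 311, 324, and 302 FPKM against 93.3, 101, and 92.8 FPKM (log2 1.71, SE 0.05, adjusted p = 9.61e-19), and remained higher when spike-in scaled (0.87). SAT1, which acetylates polyamines for export and breakdown, fell from 6.88, 5.58, and 5.66 FPKM to 5.46, 2.17, and 3.01 FPKM (log2 -0.85, SE 0.20), and the groups lay close without overlap.

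**Figure D1:**
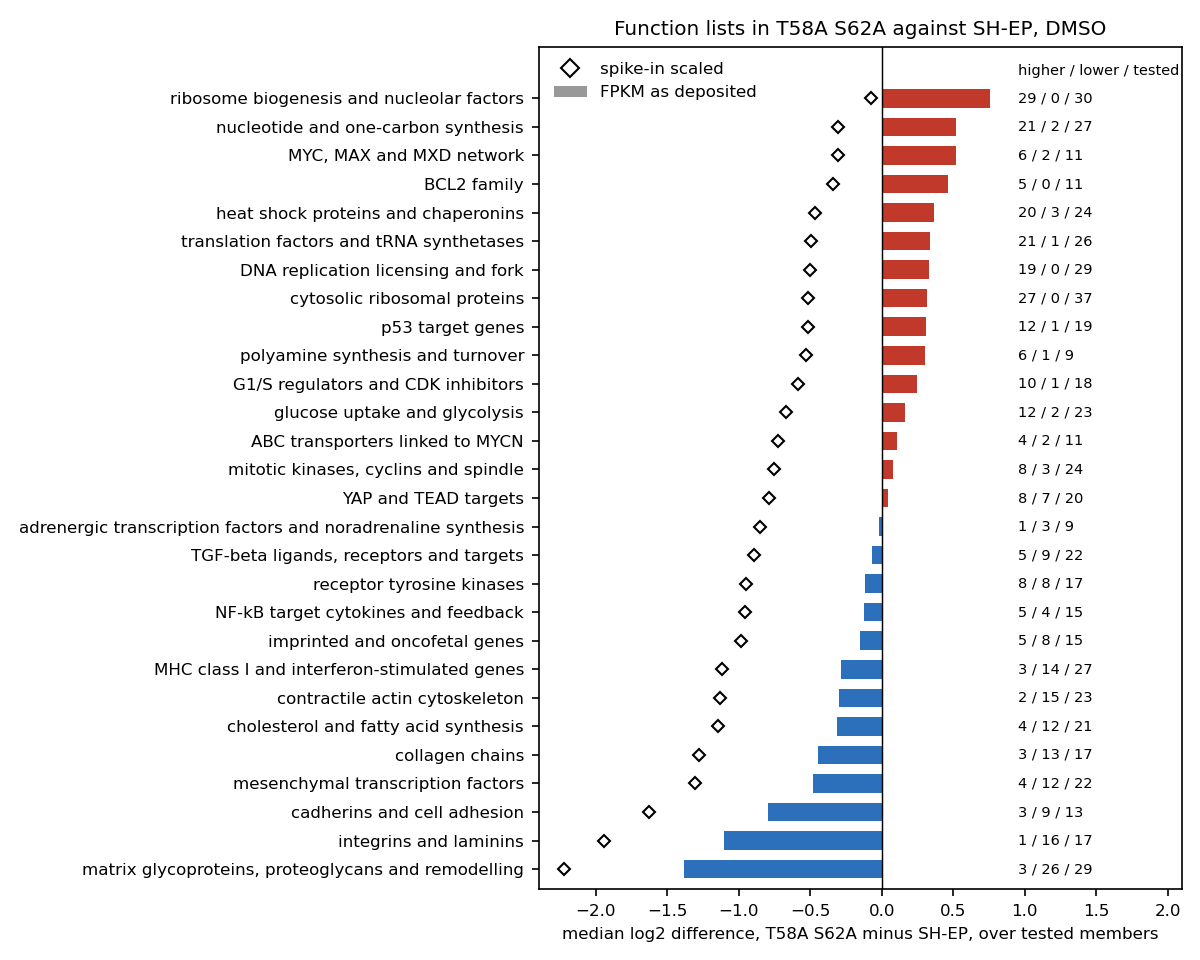
Median log2 difference between T58A S62A and SH-EP over the tested members of 28 function lists (bars, FPKM as deposited; open diamonds, spike-in scaled), with the numbers of members higher, lower and tested at the right. The bars run from 0.76 for ribosome biogenesis to -1.38 for matrix glycoproteins, and every diamond lies below 0, the highest at -0.07.

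Central metabolism was mixed. Of 23 genes of glucose uptake and glycolysis, 12 were higher and 2 lower (median 0.16, spike-in scaled -0.67). HK2, the inducible hexokinase, was at 10.4, 10.4, and 9.18 FPKM against 2.42, 2.58, and 2.35 FPKM (log2 1.98, SE 0.09), and the lactate transporter SLC16A1 rose by 1.04 (SE 0.07, 0.21 spike-in scaled, call lost). PFKFB3, which makes the allosteric activator of phosphofructokinase, fell from 62, 61.8, and 61.6 FPKM to 16.2, 14.9, and 16.7 FPKM (log2 -1.95, SE 0.07), and the glucose transporter SLC2A3 fell by 1.72 on the log2 scale (SE 0.21). Of 21 genes of cholesterol and fatty acid synthesis, 4 were higher and 12 lower (median -0.32). SREBF2, the transcription factor that drives cholesterol synthesis, went from 12.4, 13.1, and 12.5 FPKM to 5.96, 4.64, and 5.23 FPKM (log2 -1.25, SE 0.09), and the isoprenoid enzyme IDI1 changed by -1.21 (SE 0.07). The fatty acid desaturase SCD went the other way, from 53.9, 53.9, and 55.7 FPKM to 120, 120, and 110 FPKM (log2 1.09, SE 0.05, 0.26 spike-in scaled, call lost), as did SREBF1 by 0.61 (SE 0.11, -0.22 spike-in scaled).

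Replication genes were higher and mitotic genes were mixed. Of 29 genes of replication licensing and the fork, 19 were higher and 0 lower (median 0.33, spike-in scaled -0.50), whereas of 24 mitotic kinases, cyclins, and spindle genes 8 were higher and 3 lower (median 0.08, spike-in scaled -0.75). The difference between these lists was not tested. MCM7, a subunit of the replicative helicase, was at 205, 194, and 209 FPKM against 114, 119, and 113 FPKM (log2 0.81, SE 0.05), and GINS3 rose by 0.78 (SE 0.11). Spike-in scaled, both were near 0, at -0.02 and -0.05. CCNA2 (cyclin A2) rose by 0.68 (SE 0.07, -0.15 spike-in scaled), and KIF20A, a mitotic kinesin, fell by 0.43 on the log2 scale (SE 0.06). Among 18 G1/S regulators, 10 were higher and 1 lower (median 0.24, spike-in scaled -0.59). CCNE1 (cyclin E1), the activating partner of CDK2, was at 13.7, 12, and 13.1 FPKM against 4.11, 3.70, and 4.57 FPKM (log2 1.63, SE 0.13). It stayed above SH-EP when spike-in scaled (0.82). CDKN2C, an inhibitor of CDK4 and CDK6, was the member that fell, from 68.0, 68.5, and 60.8 FPKM to 47.0, 42.9, and 47.5 FPKM (log2 -0.52, SE 0.08).

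Of 19 p53 target genes, 12 were higher and 1 lower (median 0.31, spike-in scaled -0.52), and of 11 tested BCL2 family genes 5 were higher and 0 lower (median 0.47, spike-in scaled -0.34). The 2 largest rises in the latter were of proapoptotic members. BBC3 (PUMA) was at 6.37, 6.21, and 7.95 FPKM against 1.90, 2.97, and 2.91 FPKM (log2 1.38, SE 0.19), and BID at 56.8, 52.8, and 55.8 FPKM against 23.0, 25.8, and 26.1 FPKM (log2 1.14, SE 0.06, 0.31 spike-in scaled, call lost).

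Genes of the extracellular matrix and its receptors were lower. Of 29 tested matrix glycoproteins, proteoglycans, and remodelling enzymes, 26 were lower and 3 higher, and 0 missed the threshold (median -1.38, spike-in scaled -2.22). TIMP3 (chromosome 22, 33197691 to 33259028), an inhibitor of matrix metalloproteinases, was at 14.8, 14.7, and 15.5 FPKM in T58A S62A against 188, 193, and 188 FPKM in SH-EP (log2 -3.65, SE 0.05). DCN, the proteoglycan decorin, went from 30.1, 26.6, and 28.0 FPKM to 1.79, 1.59, and 1.13 FPKM (log2 -4.16, SE 0.14). Against this trend, the proteoglycan BGN (biglycan) was at 67.2, 54.4, and 55.2 FPKM against 14.4, 13.7, and 13.6 FPKM (log2 2.07, SE 0.08), and ADAMTS1, a secreted metalloproteinase, at 7.21, 7.27, and 6.89 FPKM against 1.07, 1.04, and 1.2 FPKM (log2 2.59, SE 0.16). Both stayed above SH-EP when spike-in scaled (1.24 and 1.83).

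Of 17 tested collagen chains, 13 were lower and 3 higher (median -0.45). COL1A1, a chain of fibrillar collagen I, fell from 594, 646, and 673 FPKM to 196, 156, and 192 FPKM (log2 -1.82, SE 0.09), and COL5A1 by 2.1 on the log2 scale (SE 0.09). COL16A1 and COL27A1 rose, the former from 1.08, 1.12, and 1.03 FPKM to 3.71, 4.0, and 3.61 FPKM (log2 1.72, SE 0.15) and the latter by 1.35 (SE 0.11). Of 17 integrins and laminins, 16 were lower and 1 higher (median -1.1). ITGA1, a collagen receptor subunit, was at 14.2, 14.9, and 13.9 FPKM against 105, 98.4, and 102 FPKM (log2 -2.82, SE 0.07), and LAMB3 at 22.2, 17.7, and 22.1 FPKM against 105, 107, and 107 FPKM (log2 -2.37, SE 0.08). LAMA4 was the exception, higher by 0.68 (SE 0.18) as deposited and at -0.14 spike-in scaled.

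Of 13 tested cadherins and other adhesion genes, 9 were lower and 3 higher (median -0.79). CDH11, the mesenchymal cadherin, fell from 103, 98.7, and 102 FPKM to 22.2, 23.2, and 21.4 FPKM (log2 -2.18, SE 0.05), and NCAM2 by 2.78 on the log2 scale (SE 0.23). CDH13, which is anchored to the membrane by a lipid, appeared at 2.85, 2.14, and 2.45 FPKM against 0.143, 0.0226, and 0.0223 FPKM (log2 4.06, SE 0.44). Of 23 genes of the contractile actin cytoskeleton, 15 were lower and 2 higher (median -0.30). MYLK, the kinase that activates myosin, and TAGLN, an actin-binding protein of smooth muscle, each fell by 1.79 on the log2 scale (SE 0.07 and 0.13). TAGLN was at 15.4, 12.1, and 16.5 FPKM against 47.3, 50.6, and 53.8 FPKM. TPM2, a tropomyosin, rose by 0.59 (SE 0.06, -0.24 spike-in scaled).

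**Figure D2:**
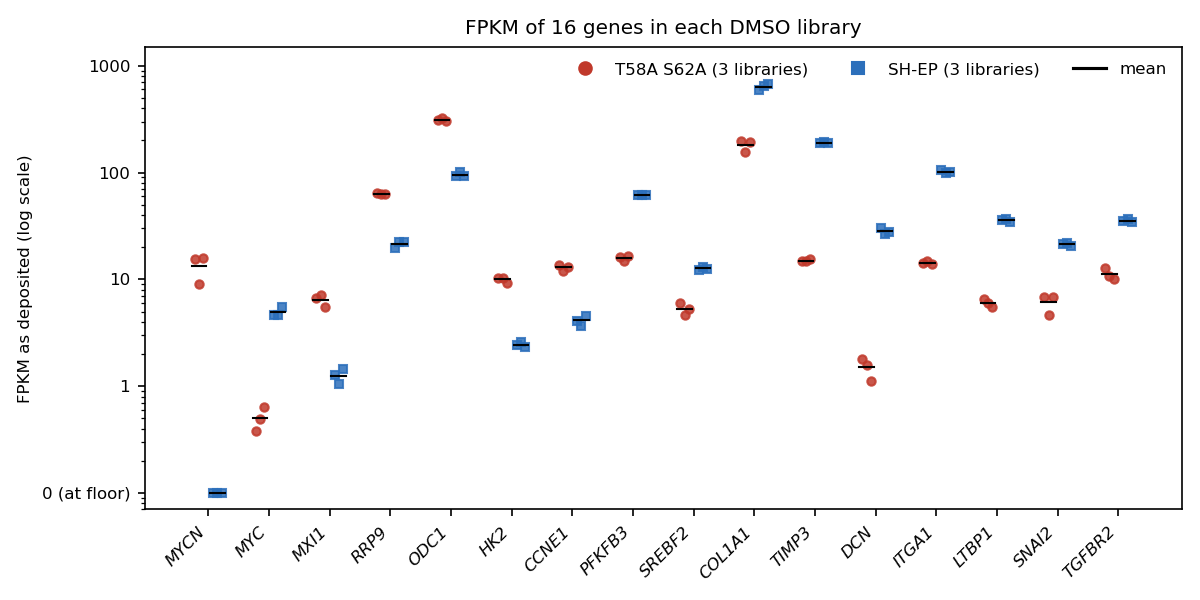
FPKM as deposited (log axis; values of 0 are drawn at the floor) of 16 genes in each of the 3 T58A S62A and 3 SH-EP libraries, with the mean of each group as a line. For every gene the T58A S62A libraries and the SH-EP libraries do not overlap, as for ODC1 (302 to 324 against 92.8 to 101 FPKM) and TIMP3 (14.7 to 15.5 against 188 to 193 FPKM). The 16 genes were taken from those past the threshold. Of all 11575 tested genes, 6150 passed it without overlap.

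Transcription factors of the mesenchymal state were more often lower, 12 of 22 against 4 higher (median -0.48). SNAI2, a repressor of epithelial genes, was at 6.85, 4.64, and 6.84 FPKM against 21.6, 21.9, and 20.5 FPKM (log2 -1.81, SE 0.12), and CREG1, a secreted glycoprotein that the list also holds, fell by 1.66 on the log2 scale (SE 0.09). TWIST1, a helix-loop-helix factor of the mesenchyme, went up, from 23.9, 23.3, and 20.5 FPKM to 37.9, 35.4, and 36.6 FPKM (log2 0.70, SE 0.13), and was at -0.13 when spike-in scaled. Of the 29 genes of the adrenergic list, 10 were listed at 0 in all 6 libraries and 9 were tested, of which 1 was higher, 3 were lower, and 5 passed in neither direction (median -0.02, spike-in scaled -0.85). CHGB, a secretory granule protein, was the member that was higher, at 0.889, 1.25, and 1.17 FPKM against 0.388, 0.700, and 0.362 FPKM (log2 1.08, SE 0.27), and it was not past the threshold when spike-in scaled (0.38). TBX2, a T-box factor of the adrenergic state, fell from 105, 110, and 112 FPKM to 63.5, 49.8, and 69.7 FPKM (log2 -0.85, SE 0.10).

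Of 22 genes of the TGF-beta pathway, 5 were higher and 9 lower (median -0.07, spike-in scaled -0.89). The ligand TGFB2 (chromosome 1, 218518678 to 218617961) was at 12.8, 12.5, and 11.4 FPKM against 2.88, 3.03, and 3.24 FPKM (log2 1.97, SE 0.11), and TGFB3 at 3.97, 2.39, and 2.21 FPKM against 1.26, 1.03, and 0.891 FPKM (log2 1.31, SE 0.22, 0.55 spike-in scaled, call lost). The type II receptor TGFBR2 fell from 35.4, 36.4, and 34.6 FPKM to 12.7, 10.8, and 10.1 FPKM (log2 -1.66, SE 0.08), and LTBP1, which stores latent TGF-beta in the matrix, from 35.9, 37, and 34.6 FPKM to 6.49, 5.99, and 5.51 FPKM (log2 -2.56, SE 0.08). Of 20 genes of the YAP and TEAD pathway, which include its own factors and regulators besides targets, 8 were higher and 7 lower (median 0.04, spike-in scaled -0.79). ANKRD1 was at 174, 201, and 153 FPKM against 54.5, 59.7, and 55.9 FPKM (log2 1.63, SE 0.08), and TEAD3 rose by 2.41 (SE 0.28), while PTPN14, a negative regulator of YAP, fell by 0.56 on the log2 scale (SE 0.06).

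Of 15 tested imprinted and oncofetal genes, 5 were higher and 8 lower (median -0.15). The long noncoding RNA H19 was at 650, 542, and 653 FPKM against 6.61, 4.34, and 6.01 FPKM (log2 6.76, SE 0.11), and its neighbour in the same imprinted domain, the growth factor IGF2, at 9.01, 7.56, and 7.12 FPKM against 1.25, 0.982, and 0.839 FPKM (log2 2.84, SE 0.13). HMGA2, an oncofetal chromatin protein, fell from 119, 118, and 118 FPKM to 48.3, 47.9, and 45.1 FPKM (log2 -1.33, SE 0.08), and the imprinted gene SGCE by 1.08 on the log2 scale (SE 0.08).

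Of 27 MHC class I and interferon-stimulated genes, 14 were lower and 3 higher (median -0.28). IFI44 was at 1.25, 2.61, and 0.976 FPKM against 14.3, 12.5, and 12.5 FPKM (log2 -3.06, SE 0.36). HLA-B was at 0.0994, 0.112, and 0.167 FPKM against 4.93, 4.29, and 3.76 FPKM (log2 -4.30, SE 0.47), although reads of the class I genes can be split among near-identical copies. BST2 (tetherin) ran against the list, at 9.19, 6.56, and 7.71 FPKM against 3.62, 1.80, and 2.17 FPKM (log2 1.64, SE 0.31), and the peptide transporter subunit TAP2 rose by 0.76 (SE 0.06, -0.07 spike-in scaled). Of 15 NF-kB target genes, 5 were higher and 4 lower (median -0.13, but 0.19 without T58A S62A replicate 2). BIRC3, an inhibitor of apoptosis, was at 1.13, 1.39, and 1.21 FPKM against 0.330, 0.231, and 0.192 FPKM (log2 1.95, SE 0.21), and PTX3, a secreted pattern recognition protein, fell from 43.9, 45.9, and 46.1 FPKM to 15.8, 17.9, and 13.6 FPKM (log2 -1.53, SE 0.08).

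Receptor tyrosine kinases were split evenly, with 8 of 17 higher and 8 lower (median -0.12). PDGFRA was at 4.03, 4.76, and 3.70 FPKM against 19.9, 17.1, and 17.6 FPKM (log2 -2.11, SE 0.15), and EPHB4 at 6.69, 6.73, and 6.18 FPKM against 2.54, 2.77, and 2.56 FPKM (log2 1.28, SE 0.16, 0.48 spike-in scaled, call lost). Of 11 tested ABC transporters linked to MYCN, 4 were higher and 2 lower (median 0.10, spike-in scaled -0.72). ABCC4 rose from 4.29, 3.73, and 4.76 FPKM to 9.23, 9.94, and 10.1 FPKM (log2 1.18, SE 0.09, 0.37 spike-in scaled, call lost), whereas ABCC3 fell by 0.94 on the log2 scale (SE 0.21).

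The largest changes of all were in genes of no single pathway. Among the largest rises with a mean of at least 10 FPKM, CDC42EP1, an effector of the GTPase CDC42, was at 25.3, 24.2, and 28.5 FPKM against 0, 0.0833, and 0.0822 FPKM (log2 7.45, SE 0.36). LCP1, the actin-bundling L-plastin of blood cells, was at 80.5, 84.9, and 74.7 FPKM against 1.91, 1.68, and 1.46 FPKM (log2 5.49, SE 0.24), and the part of leukocyte markers in it, whose sums are given above, was not tested. TMPRSS15, the protease enteropeptidase, was at 11.6, 13.6, and 10.4 FPKM against 0.169, 0.261, and 0.129 FPKM (log2 5.40, SE 0.35), and HBE1, embryonic globin, at 31.4, 33.7, and 28.7 FPKM against 0.688, 0.668, and 0.657 FPKM (log2 5.34, SE 0.20). SAA1 (log2 6.19, SE 0.63) and TUBA1C (log2 4.90, SE 0.10) share reads with near-identical paralogs and are uncertain.

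Among the largest falls, CGA, the common alpha subunit of the glycoprotein hormones, was listed at 0 in all 3 T58A S62A libraries and at 50.6, 65.3, and 54.2 FPKM in SH-EP. ISLR, a secreted protein of mesenchymal stromal cells, was at 0.585, 0.160, and 1.02 FPKM against 70.8, 74.6, and 72.9 FPKM (log2 -6.96, SE 0.38). ASPN, a small proteoglycan, was at 0, 0.146, and 0.219 FPKM against 11.1, 10.0, and 10.1 FPKM (log2 -5.72, SE 0.43). The tetraspanin CD82 went from 38.4, 40.2, and 40.7 FPKM to 1.1, 1.75, and 1.77 FPKM (log2 -4.63, SE 0.17). The small nucleolar RNA genes SNORA26 and SNORD97 were at 0 in all 3 T58A S62A libraries, and SNORA64 at 0, 0, and 34.2 FPKM against 60.4, 46.9, and 34.6 FPKM. Such short genes lie inside other transcripts, poly(A) selection does not target them, and their log2 differences had standard errors of 2.07 to 2.74. SNORD97 lost its call when any 1 of the 6 libraries was left out, and SNORA64 in 2 of those 6 fits.

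T58A S62A was then set against the mean of the WT, T58A, and S62A lines. Of the tested genes, 1130 (9.76%) were higher and 1443 (12.5%) lower in T58A S62A, and 84 and 108 of them by at least 2-fold. Spike-in scaled, 8519 were higher and 123 lower. The log2 spike-in factors of the DMSO libraries differed between and within lines. They were 0.66 to 1.01 in T58A S62A, 0.26 to 0.95 in T58A, 0.17 to 0.72 in WT, and -0.47 to -0.09 in S62A. T58A and WT thus overlapped T58A S62A in part, and S62A lay below it. As the comparison with the sister lines shares the T58A S62A libraries with that against SH-EP, the values of each are given side by side. For MYCN, the 9 libraries of the sister lines ran from 5.08 to 13.7 FPKM with a median of 8.44 FPKM, and T58A S62A was higher by 0.61 (SE 0.14, adjusted p = 0.00182), within the range of the sister lines in 1 of its 3 libraries. The WT line, at 11.7 to 13.7 FPKM, overlapped T58A S62A, whereas T58A (7.27 to 9.84 FPKM) and S62A (5.08 to 6.59 FPKM) were lower on average. For MYC they ran from 0.414 to 1.93 FPKM, and T58A S62A was lower than their mean (log2 -0.76, SE 0.14, -0.28 spike-in scaled and then not past the threshold). The T58A line, at 0.414 to 0.468 FPKM, lay within the range of T58A S62A. Of the matrix list, 21 of 29 genes were lower than in the sister lines and 2 higher (median -0.34, spike-in scaled 0.21, against 0.54 over all tested genes), and of the MHC class I and interferon-stimulated list 11 of 27 were higher and 1 lower (median 0.19, spike-in scaled 0.74), the opposite sign to its median against SH-EP. Of the ribosome biogenesis list, 4 of 30 were higher and 0 lower (median 0.04, spike-in scaled 0.60).

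Of the 11575 tested genes, 746 passed the threshold with the 3 T58A S62A libraries all above or all below all 9 sister libraries. Some of those with large rises are given first. LCP1 was at 74.7 to 84.9 FPKM in T58A S62A, 11.8 to 13.3 FPKM in T58A, 0.570 to 1.23 FPKM in S62A, and 0.0214 to 0.0600 FPKM in WT (log2 6.06, SE 0.19, adjusted p = 2.16e-16). TMPRSS15 followed the same order of lines, from 10.4 to 13.6 FPKM in T58A S62A to 1.02 to 1.66 FPKM in T58A, 0.429 to 0.619 FPKM in S62A, and at most 0.153 FPKM in WT (log2 4.47, SE 0.28). FGF13, an intracellular fibroblast growth factor homolog, was at 15.7, 20.9, and 15.9 FPKM against at most 9.10 FPKM in a sister library and 1.58, 1.41, and 1.53 FPKM in SH-EP (log2 2.58, SE 0.19). HSPB7, a small heat shock protein, was at 19, 16.8, and 19 FPKM, above the 1.43 to 6.98 FPKM of the sister libraries (log2 2.56, SE 0.10). For TGFB2, the sister libraries, at 2.52 to 3.73 FPKM, lay around the 2.88 to 3.24 FPKM of SH-EP, whereas T58A S62A was at 11.4 to 12.8 FPKM (log2 1.98, SE 0.09, adjusted p = 1.08e-13). BST2 had a similar pattern at lower levels, with 0.693 to 2.83 FPKM in the sister libraries (log2 2.26, SE 0.25). HBE1 was higher by 1.91 (SE 0.16).

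Other genes were lowest in T58A S62A. NTS, the peptide neurotensin, was at 4.73, 2.95, and 2.65 FPKM against 5.30 to 18.5 FPKM in the sister libraries and 32.3, 26.7, and 25.3 FPKM in SH-EP (log2 -1.82, SE 0.14 against the sister lines). AKR1C1, an aldo-keto reductase with near-identical paralogs, was at 2.78, 3.51, and 3.50 FPKM against 6.52 to 14.5 FPKM and, in SH-EP, 47.7, 39.6, and 41.9 FPKM (log2 -1.56, SE 0.15). CD82 was at 3.76 to 9.00 FPKM in the sister libraries (log2 -1.80, SE 0.14), so in both comparisons T58A S62A was the lowest. GFPT2, of the hexosamine pathway, was at 5.42, 6.14, and 5.50 FPKM, whereas SH-EP, at 12.3, 13.6, and 13.2 FPKM, lay close to the 12.9 to 18.6 FPKM of the sister libraries (log2 -1.33, SE 0.08). DIRAS3, an imprinted small GTPase, was at 7.44, 2.99, and 7.69 FPKM, below the 10.8 to 23.7 FPKM of the sister libraries (log2 -1.51, SE 0.17), and CREG1 was lower than in them (log2 -1.11, SE 0.07).

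**Figure D3:**
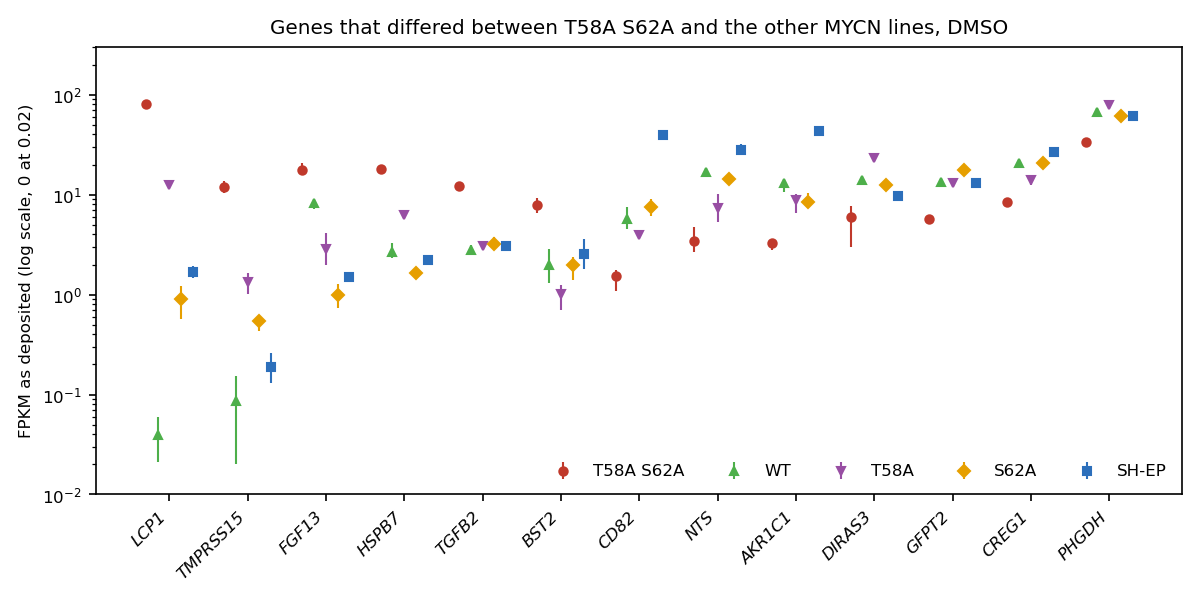
Mean FPKM as deposited (log axis, 0 drawn at 0.02; bars from the lowest to the highest of 3 libraries) of 13 genes in the 5 lines in DMSO. T58A S62A is above the other lines for LCP1 to BST2 and below them for CD82 to PHGDH, and for TGFB2 and GFPT2 SH-EP lies with the other lines.

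PHGDH, described above as the member of its list that fell most, belongs to a run of neighbouring genes on chromosome 1 that were lower together. Its sister libraries were at 58.1 to 83.6 FPKM, close to SH-EP, and T58A S62A was lower (log2 -1.02, SE 0.04, adjusted p = 3.28e-14). When the 10150 genes with a position and a mean of at least 2 FPKM were put in order along each chromosome, the running median of 15 genes of the difference from the sister lines stayed beyond 0.4 in size for at least 10 genes in 3 places. The longest was a run of 43 genes from AP4B1 to FAM72C (chromosome 1, 114436816 to 149459549 of GRCh37), which spans the centromere. The run was chosen on these values after they were seen, so its counts against the sister lines are a description without a test.

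Of the 43 genes, 34 were lower than in the sister lines and 1 was higher (12.5% and 9.76% of all tested genes), and in 30 of them all 3 T58A S62A libraries lay below all 9 sister libraries, as they did in 3.92% of all tested genes and in 2 of the 43 genes on each side of the run. The median log2 difference was -0.78 (interquartile range -1.02 to -0.50). Against SH-EP, in a comparison that shares the T58A S62A libraries the run was chosen on, 35 were lower and 2 higher, with a median of -0.90. The 43 genes before the run had a median of -0.05 against the sister lines and -0.02 against SH-EP, and the 43 after it -0.01 and -0.30. That -0.01 is against the mean of sister lines that differed from each other over those genes, as given below. The 23 genes on the short arm had a median of -0.99 and the 20 on the long arm -0.63 against the sister lines.

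The edge on the short arm was sharp. RSBN1, the last gene before the run (chromosome 1, 114304454 to 114355098), was at 3.18, 3.09, and 3.33 FPKM in T58A S62A against 2.41 to 4.22 FPKM in the sister libraries and 2.94, 3.21, and 2.76 FPKM in SH-EP. AP4B1, the first gene inside it (114436816 to 114447823), was at 3.12, 2.12, and 3.44 FPKM against 4.64 to 6.34 FPKM and 5.80, 5.64, and 6.98 FPKM. The run holds NRAS (115247090 to 115259392), a RAS GTPase, at 16.4, 20.1, and 16.1 FPKM against 32.1 to 37.7 FPKM in the sister libraries and 34, 32.7, and 31.3 FPKM in SH-EP. NOTCH2, a receptor counted among the mesenchymal genes, was at 12, 11.2, and 10.6 FPKM against 15.4 to 22.7 FPKM and 24.1, 26.5, and 26 FPKM. On the long arm, RBM8A, of the exon junction complex, was at 27.2, 29.2, and 25.8 FPKM against 36.5 to 55.6 FPKM and 43.8, 44.3, and 42.6 FPKM. The genes named in this paragraph were chosen after their values were seen.

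Not all genes of the run were lower. IGSF3 was at 3.52, 2.55, and 3.14 FPKM against 2.49 to 3.40 FPKM in the sister libraries, and its neighbour PTGFRN, which encodes a related immunoglobulin superfamily protein, was at 10.3, 9.41, and 10.2 FPKM against 7.16 to 9.50 FPKM and 4.61, 4.88, and 4.27 FPKM in SH-EP. TXNIP, a glucose-responsive arrestin, was at 6.19, 8.44, and 6.20 FPKM against 6.29 to 11.8 FPKM in the sister libraries and 4.57, 2.76, and 3.25 FPKM in SH-EP. PTGFRN was the member that was higher than in the sister lines (log2 0.22), and IGSF3 and TXNIP passed in neither direction against them. POLR3GL (log2 -0.28) and NUDT17 (log2 -0.67) were not past the threshold against the sister lines either. FAM72B, FAM72C, NUDT4P1, and GPR89A, which also passed in neither direction, have near-identical copies elsewhere, so their values are uncertain.

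**Figure D4:**
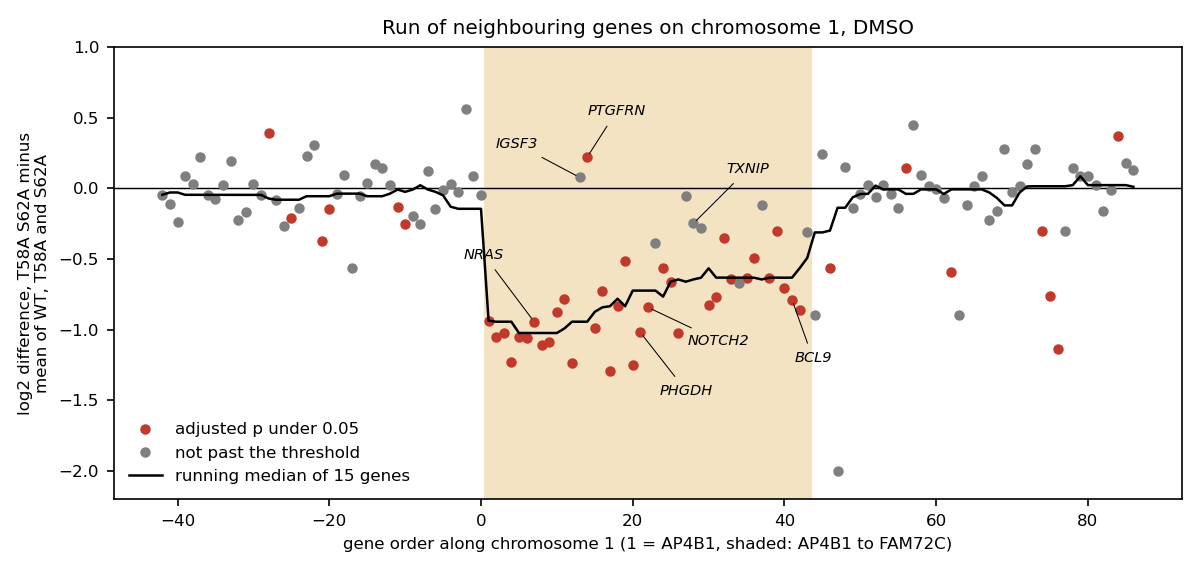
Log2 difference between T58A S62A and the mean of the WT, T58A, and S62A lines in DMSO for the 43 genes of the run (shaded) and 43 genes on each side, in their order along chromosome 1. The line, a running median of 15 genes, drops from -0.15 at RSBN1 to -0.94 at AP4B1, the first gene of the run, and returns toward 0 after the last.

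The same run was examined in each library, including those given CYC065, whose differences were not used to find it, although their levels entered the minimum of 2 FPKM. Each value is the median over the 43 genes of the log2 difference from the mean of the sister libraries of the same treatment, less the median over all genes. It therefore does not depend on scaling by a constant factor. The sister libraries form that reference, so as a set they are centred near 0 by construction, while T58A S62A and SH-EP are no part of it. In DMSO it was -0.77, -0.70, and -0.81 in T58A S62A, and it ranged from -0.14 to 0.06 in the 9 sister libraries and from 0.10 to 0.15 in SH-EP. In CYC065 it was -0.82, -0.81, and -0.83 in T58A S62A, from -0.10 to 0.09 in the sister libraries, and from 0.01 to 0.23 in SH-EP. Over the run, the 6 T58A S62A libraries thus lay apart from the other 24, with and without CYC065. Over the 43 genes after the run, the sister lines differed from each other. The 0 of this scale is the mean of those lines and not SH-EP. In DMSO the value of the 43 genes was -0.35, -0.30, and -0.37 in S62A and 0.31, 0.22, and 0.25 in T58A. It was 0.08, 0.10, and 0.05 in WT. It was 0.02, 0.01, and -0.04 in T58A S62A and 0.32, 0.33, and 0.31 in SH-EP. T58A thus lay closest to SH-EP, and WT, T58A S62A, and S62A lay further below it. In CYC065 it was -0.47 to -0.35 in S62A and 0.25 to 0.31 in T58A. A difference between lines over neighbouring genes was thus not particular to T58A S62A and its run. DNA was not measured in these libraries.

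**Figure D5:**
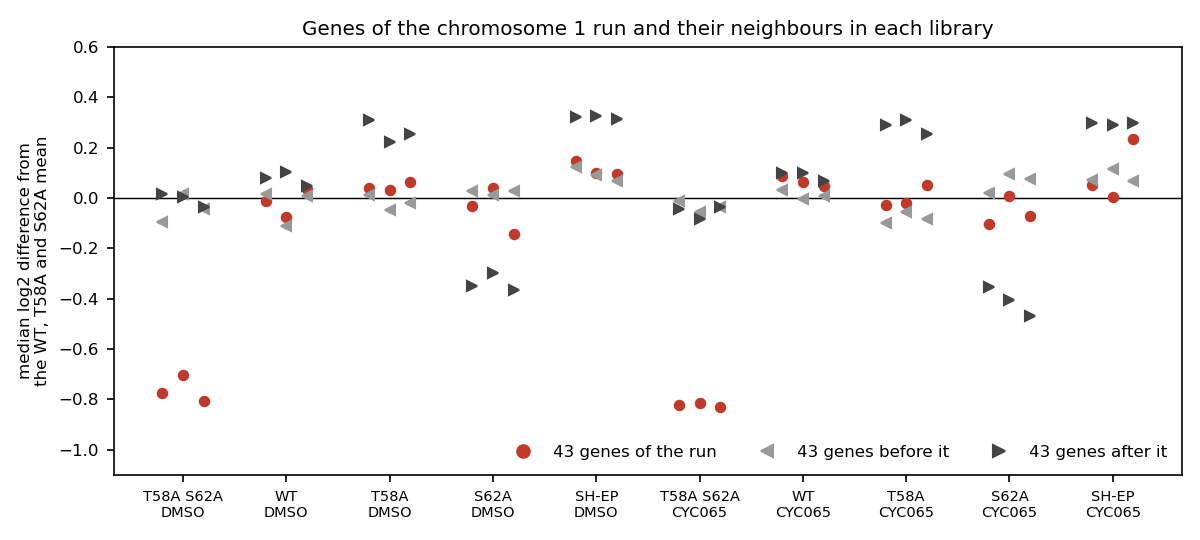
Median log2 difference from the mean of the WT, T58A, and S62A libraries of the same treatment, over the 43 genes of the run and the 43 genes before and after it, in each of the 30 libraries. For the run, the 3 DMSO and 3 CYC065 libraries of T58A S62A lie at -0.70 to -0.83 and all others at -0.14 or above.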

How the data were processed

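RNA-Seq libraries of SH-EP and 4 MYCN lines (30 libraries, 10 groups of 3) were described in 1 table. The authors selected poly(A) RNA after adding ERCC spike-ins by cell number, made strand-specific libraries, aligned reads with HISAT2 to hg19, and deposited FPKM per gene from Cufflinks. The annotation is not given in the sources used here. The table holds 26228 genes and 92 spike-ins. It gives no counts, so depth was only estimated as relative depth from the low values, and no counting intervals are given.

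Groups were taken from the labels. The 11575 genes whose FPKM averaged 1 or more across 30 libraries were tested, and log2(FPKM + 0.1) was fitted with limma 3.58.1 (R 4.3.3, empirical Bayes with trend, two-sided) over all 10 groups, and p-values were adjusted over all tested genes by the method of Benjamini and Hochberg. Fold changes are on the log2(FPKM + 0.1) scale, which understates those of low genes. The fit was also run on simulated levels with independent noise and known changes in some genes. That simulation held no shift or batch between libraries, so it cannot show how such shifts affect the calls. For spike-in scaling, each library was multiplied to give the 55 spike-ins that averaged 1 FPKM or more the same median log2 level. Positions came from GENCODE on GRCh37 and promoter windows from RefSeq on GRCh38.p14, both matched by symbol.

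Genes were named by rule: MYCN and MYC, the 8 largest rises and 8 largest falls (averages of 10 FPKM or more, groups not overlapping), the 2 largest of each direction in each function list, and the 4 of each direction against the other MYCN lines. Some of these genes are not reported here. Members and lists were chosen with earlier results of these data known. Alternatives changed the pseudocount, filter, scaling, fitted groups, variance trend, and a fold minimum, or left out each library.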

Additional observations from a re-analysis of the deposited data

Results flagged for a closer look

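Each gene below differed in the same contrast between lines, that is, its level in T58A S62A differed from the mean of the WT, T58A, and S62A lines in DMSO by limma's test of that difference, with an adjusted p under 0.05 over all genes tested. Higher in T58A S62A on the log2 scale were LCP1 (6.06), TMPRSS15 (4.47), FGF13 (2.58), HSPB7 (2.56), BST2 (2.26), TGFB2 (1.98), HBE1 (1.91), and MYCN (0.61). Lower were NTS (-1.82), CD82 (-1.80), AKR1C1 (-1.56), DIRAS3 (-1.51), GFPT2 (-1.33), CREG1 (-1.11), PHGDH (-1.02), and MYC (-0.76). Spike-in scaled, CREG1 was at -0.56, PHGDH at -0.47, and MYC at -0.28, and MYC lost its call. Genes were chosen for most of these by the size of this difference, so the values describe the line and are not independent of that choice.

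The run of 43 genes on chromosome 1 was also lower in the libraries given CYC065, which are on neither side of the tested comparisons but entered the fit and the filter on low values. Its median log2 difference from the sister libraries of the same treatment, less that of all genes, was -0.82, -0.81, and -0.83 in the 3 T58A S62A libraries, below the -0.10 to 0.09 of the 9 sister libraries and the 0.01 to 0.23 of SH-EP. DNA copy number was not measured, and what sets these genes lower was not tested.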

How the results depend on the processing

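FPKM hold no depth, and 3 libraries a group limit the precision. No paired analysis was possible because the columns carry no replicate number that matches the labels. Counts are given as higher and lower against SH-EP, then higher and lower against the other MYCN lines (3610, 2787, 1130, and 1443 as reported). Spike-in scaling gave 263, 8066, 8519, and 123. Scaling to the 21 spike-ins of at least 50 FPKM, chosen after seeing the data, gave 258, 4600, 10163, and 60. Requiring a change of at least 1.5-fold gave 1557, 1476, 259, and 287. Under the other alternatives each count stayed within 1.5 times that reported, and when 1 library was left out the ranges were 3270 to 3434, 2550 to 2646, 814 to 1273, and 1080 to 1536.

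Against SH-EP, genes that changed sign with spike-in scaling were RPL37 (-0.12), RPL23 (-0.19), AMD1 (-0.27), SREBF1 (-0.22), MCM7 (-0.020), GINS3 (-0.048), CCNA2 (-0.15), LAMA4 (-0.14), TPM2 (-0.24), TWIST1 (-0.13), and TAP2 (-0.068). With the 21 spike-ins, they were AMD1 (-0.088), SREBF1 (-0.033), and TPM2 (-0.052). Of the 100 genes examined against SH-EP, another 11 (EEF1E1, EIF2S1, PSAT1, DHODH, HSPE1, SLC16A1, SCD, BID, TGFB3, EPHB4, and ABCC4) kept their sign but lost their call with spike-in scaling, as did 19 with the 21 spike-ins, 8 with the fold minimum, and 4 in a fit of the groups compared only. Against the other MYCN lines, 1 of 16 genes (MYC) lost its call with spike-in scaling and 3 (MYC, PHGDH, and CREG1) with the 21 spike-ins.

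List medians that changed sign are given with spike-in scaling and then with the 21 spike-ins: MYC network -0.30 and -0.12, ribosomal proteins -0.51 and -0.33, translation -0.50 and -0.31, nucleotide synthesis -0.31 and -0.12, polyamines -0.53 and -0.35, glycolysis -0.67 and -0.48, replication -0.50 and -0.31, mitosis -0.75 and -0.56, G1/S -0.59 and -0.40, p53 targets -0.52 and -0.33, BCL2 family -0.34 and -0.16, YAP and TEAD -0.79 and -0.60, ABC transporters -0.72 and -0.54, and heat shock proteins -0.47 and -0.28. Ribosome biogenesis changed sign with spike-in scaling (-0.074). A filter at 5 FPKM, which tests fewer genes, took the MYC network to -0.071 and NF-kB targets to 0.32, no filter took ABC transporters to -0.019, and NF-kB targets ranged from -0.21 to 0.19 with 1 library left out. Scaling to spike-ins shifts the log2 values of a comparison together, by its own construction. The cause of the other changes was not tested.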

Other observations

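Of 21 genes of cholesterol and fatty acid synthesis, 9 were lower and 2 higher in T58A S62A than in the other MYCN lines (12.5% and 9.76% of all tested genes), with a median of -0.19 on the log2 scale and of 0.37 when spike-in scaled. Of 24 heat shock proteins and chaperonins, 20 of which were higher than in SH-EP, 11 were lower and 2 higher than in the other MYCN lines (median -0.08, spike-in scaled 0.47).

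Besides that on chromosome 1, 2 shorter runs of neighbouring genes met the same rule in T58A S62A against the other MYCN lines. On chromosome 19, 24 genes from WDR18 to MIR1909 (984332 to 1848482 of GRCh37) had a median log2 difference of 0.45, with 19 higher and 0 lower, and against SH-EP of 0.66, with 20 higher and 2 lower. On chromosome 20, 10 genes from AURKA to APCDD1L-AS1 (54944445 to 57194944) had a median of -0.47, with 7 lower and 0 higher, and against SH-EP of -0.14, with 4 lower and 3 higher. Of all tested genes, 9.76% were higher and 12.5% lower than in the other MYCN lines, and 31.2% were higher and 24.1% lower than in SH-EP. Against SH-EP, the run on chromosome 20 was mixed. Both runs were found in the values themselves and carry no test.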
